A study of Mus musculus with 8 samples.

Results

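The genes described here encode products of Paneth cells, the secretory cells at the base of the small intestinal crypts. They were chosen by gene symbol, with earlier results of these data known. The choice took every probe set of the array named for an alpha-defensin (a symbol starting with Defa and a digit or hyphen) together with a short list of other Paneth cell and antimicrobial genes. It found 32 probe sets among the 22206 measured. Of these 22 are alpha-defensins, and 10 are the other members Lyz1, Mmp7, Ang4, Ang5, Itln1, Mptx1, Mptx2, Pla2g2a, Habp2 and Nupr1. Of the 3 older defensin symbols on the list, RefSeq gives Gm15284 as a former name of Defa30, which was measured. Gm14851 (now Defa38) and AY761184 were matched to no probe set and are not analysed here.

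RNA from frozen duodenum of 8 untreated mice was measured on Clariom S arrays. The 4 knockout mice carried a floxed Nfkbia allele and a Cre transgene driven by the villin promoter, which deletes the regulatory region and first exons of Nfkbia in intestinal epithelial cells. The product, IκBα, keeps the transcription factor NF-κB inactive until it is degraded. Each knockout was paired with a littermate labelled wild type, and no source used here states whether those controls carried a floxed allele. Replicates are separate mice, 2 males and 2 females per genotype. Pair 1 was 2 males of 8 weeks and pair 2 was 2 females of 11 weeks. Pair 3 was a knockout male and a wild-type female of 8 weeks, and pair 4 a knockout female and a wild-type male of 9 weeks. The labels name small intestine and the series design names duodenum, with no step that isolates epithelium.

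Paneth cells store antimicrobial peptides and enzymes in granules and release them into the crypt lumen, where they act on bacteria near the stem cells. In mice the alpha-defensins, also called cryptdins, are made as precursors and are cut to their active form by the metalloproteinase that Mmp7 encodes. Wnt signalling through TCF factors is known to drive defensin genes and Paneth cell maturation.

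All 22 defensin genes lie in a single stretch of chromosome 8 (chr8:21025545-21735471 in GRCm38.p6), while the other members are spread over 7 chromosomes. RefSeq's promoter table held the region before the start site for 12 of the defensin genes and for 9 of the other genes. Searched on both strands in the 250 bases before the start, the TCF/LEF core ATCAAAG was found in 11 of the 12 defensin promoters, against 3.21% of 32851 promoters of all genes. It occurred in 2 copies in 8 of the 12, against 0.0822% of all promoters, and in all 8 the copies were 40 bases apart. A TATA box (TATAAA) followed in 10 of the 12, in each case starting 81 bases after the start of the first core, and 11 of the 12 had this motif, against 12.4% of all promoters. The defensin promoters are copies of each other to varying degrees (identity from 44.3% to 100% over 66 pairs, median 70.5%), so these counts are not independent. Gaps counted as differences, so windows that begin at different points of a like sequence score lower. The first core starts at −112 in Defa2 and −127 in Defa35, for example, and these 2 windows are 80.4% identical. The 10 promoter records of the other members, of which Mmp7 has 2, held the TCF/LEF core in 1 (an Mmp7 record) and the TATA motif in 2. That Mmp7 record (chr9:7692091-7692340) and the Habp2 record lie inside the annotated span of their genes, so neither is sequence before the gene start. The records of Itln1 and Defa28 overlap their gene spans in part. Positions here are counted from the start site of each promoter record. A further 7 motifs were searched. The NF-κB motif had 0 matches in the 12 defensin promoters and 0 in the 10 other records (7.25% of all promoters). Among the defensin promoters 0 held the GATA core AGATAA (9.99% of all promoters) and 0 held the CDX core TTTATG (10.8%). The letters ACGTG were in 0 (16.6% of all) and the HNF4 letters CAAAGTCCA in 0 (0.384%). The E-box CAGCTG was in 1 (13% of all), and the general E-box CANNTG, which includes it, in 11 (66.2%). The TCF/LEF and TATA matches did not overlap each other, and a match is a description of the letters only.

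**Figure D1:**
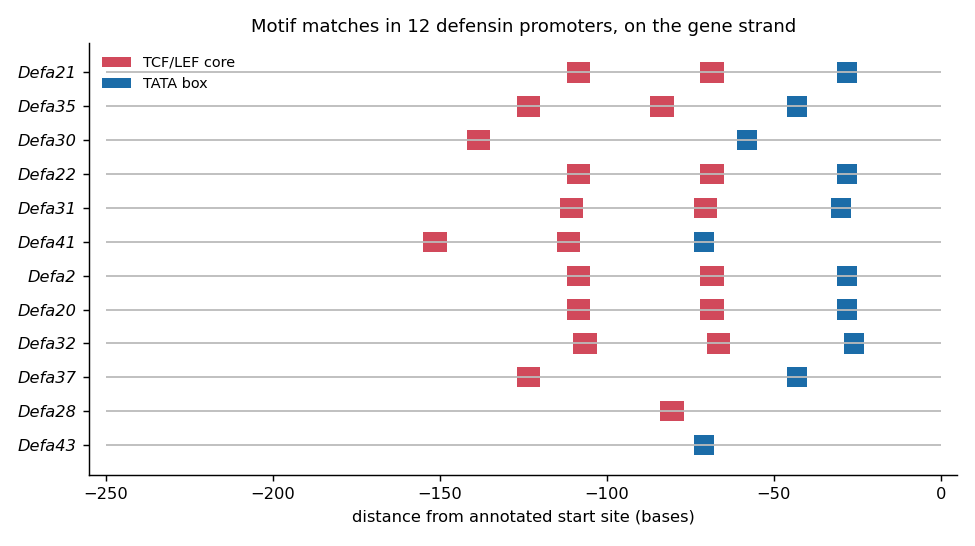
Motif matches along the 250 bases before the start site of the promoter records of 12 defensin genes (x axis, distance in bases, with 1 line per gene). The window of Defa28 runs into its annotated gene span. Red blocks mark the TCF/LEF core and blue blocks the TATA box; 8 genes show 2 cores 40 bases apart, Defa43 has no core and Defa28 no TATA box.

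The sequences below show these arrangements, in 5′ to 3′ direction on the gene strand with both motifs in capitals. Defa35 (chr8:21064788-21065037, plus strand) has the complete arrangement, and it is the defensin with the largest mean difference in the arrays. Defa37 (chr8:21565136-21565385, plus) is nearly the same sequence with a single core. Defa2 (chr8:21378267-21378516, plus) is identical to Defa20 over these bases, and stands for a group with Defa21 and Defa22 (98% identical to it) and Defa32 (98.4%). Defa43 (chr8:21594466-21594715, minus) lacks the core. Ang4 (chr14:51773591-51773840, minus) is the member with the largest difference and has neither motif.
Defa35: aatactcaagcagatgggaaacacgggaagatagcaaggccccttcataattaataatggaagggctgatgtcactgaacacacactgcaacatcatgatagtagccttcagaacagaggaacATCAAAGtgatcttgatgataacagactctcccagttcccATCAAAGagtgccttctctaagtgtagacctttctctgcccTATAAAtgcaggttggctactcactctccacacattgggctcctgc
Defa37: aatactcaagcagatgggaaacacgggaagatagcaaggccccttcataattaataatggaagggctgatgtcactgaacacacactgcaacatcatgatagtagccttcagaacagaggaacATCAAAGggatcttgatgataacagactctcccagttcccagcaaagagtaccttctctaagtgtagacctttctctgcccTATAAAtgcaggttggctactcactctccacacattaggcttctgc
Defa2: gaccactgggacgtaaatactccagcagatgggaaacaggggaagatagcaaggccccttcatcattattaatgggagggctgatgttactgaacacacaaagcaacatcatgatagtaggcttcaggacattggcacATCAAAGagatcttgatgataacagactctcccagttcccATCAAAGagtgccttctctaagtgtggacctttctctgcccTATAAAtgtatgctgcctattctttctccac
Defa43: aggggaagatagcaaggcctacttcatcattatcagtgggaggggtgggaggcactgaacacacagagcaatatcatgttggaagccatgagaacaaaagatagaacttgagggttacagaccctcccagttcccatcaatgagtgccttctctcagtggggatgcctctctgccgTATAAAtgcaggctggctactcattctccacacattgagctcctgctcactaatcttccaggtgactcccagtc
Ang4: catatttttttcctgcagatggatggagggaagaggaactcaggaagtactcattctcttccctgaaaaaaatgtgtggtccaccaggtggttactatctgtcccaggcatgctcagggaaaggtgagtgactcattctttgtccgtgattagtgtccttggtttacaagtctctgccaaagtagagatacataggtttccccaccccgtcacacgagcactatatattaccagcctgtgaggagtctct
Counted from the first base printed, Defa37 differs from Defa35 by T131G, T165G, G174A, G241A and C246T, Defa35's base being given first. T165G lies inside the second core of Defa35, at base −86 from the start site.

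The deleted gene was lower in all 4 knockouts. Nfkbia had log2 values of 6.82, 6.65, 7.72 and 6.65 in knockouts 1 to 4 and 9.75, 9.91, 9.01 and 9.78 in their siblings, so that the groups did not overlap. The differences were −2.93, −3.26, −1.29 and −3.13 in pairs 1 to 4, smallest in pair 3. The mean of −2.65 ± 0.918 (SD of the within-pair differences, n = 4) passed the test (limma adjusted p = 0.013), and the call was lost without pair 1, 2 or 4 (adjusted p up to 0.0582).

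Of the 32 Paneth cell probe sets 3 fell in knockout duodenum and 0 rose, by limma with the sibling pair as a block and adjustment over all 22206 probe sets. Over all probe sets 2.7% were called lower and 3.16% higher. Ang4, Habp2 and Nupr1 were the 3 that fell, and 0 of the 22 defensins were called. At unadjusted p under 0.05 were 17 of the 22 defensins, against 6098 of all 22206 probe sets. With probe sets of identical values counted once these were 14 of 19 defensins. The other members, with Mmp7 as the exception, had mean differences below 0, as did all 22 defensins. In bulk tissue fewer cells of a type and less RNA per cell cannot be told apart. The median difference was −0.53 over the 32 members, −0.50 over the defensins and −0.82 over the other 10, against −0.015 over all probe sets.

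The deposited values set a limit on how these numbers can be read. For a typical probe set the mean of the 2 siblings was almost the same in all 4 pairs. The median SD of the pair means was 0.0175 over all probe sets and 0.0607 over the members. The median SDs of the within-pair differences were 0.179 and 0.480. Some genes were exceptions. The pair means had an SD of 0.149 for Ang4 and a median SD of 0.141 over 8 ileal genes. For the ileal gene Fabp6 both siblings were lower in pair 3 (9.22 and 8.78) than in pair 1 (10.05 and 9.65). Apart from such exceptions, near-equal pair means match a level that is high in a knockout with a low level in its sibling. For the same reason, groups that do not overlap say little beyond the same direction in all 4 pairs. The within-pair difference is what can be compared, and the data do not tell which sibling of a pair departs from the other mice.

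Among the granule products other than defensins, Ang4, which encodes a microbicidal angiogenin, had the largest difference. Its log2 values were 9.28, 9.00, 10.21 and 8.66 in knockouts 1 to 4 and 11.27, 11.55, 10.38 and 11.31 in their siblings. Every knockout value was below every wild-type value, but knockout 3 was close to its sibling: the differences were −1.99, −2.55, −0.17 and −2.65 in pairs 1 to 4. The mean of −1.84 ± 1.15 (SD, n = 4 pairs) is a 3.58-fold lower level (95% interval −2.78 to −0.90, limma adjusted p = 0.0477). The call was lost without pair 1, 2 or 4 (adjusted p from 0.126 to 0.149), with RNA integrity as a covariate (0.0521) and with trend and robust variance (0.152).

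Lyz1, the Paneth cell lysozyme, had values of 11.73, 11.57, 12.46 and 11.55 in knockouts and 13.00, 13.14, 12.39 and 12.98 in wild types. Knockouts 1, 2 and 4 were below every wild type, and knockout 3 lay 0.07 above its own sibling, the lowest wild type. The mean difference of −1.05 ± 0.757 (n = 4 pairs) did not pass the test (95% interval −1.68 to −0.42, limma adjusted p = 0.0657). Lyz2, the macrophage lysozyme and a close paralog of Lyz1, differed by −0.35, −0.82, 0.16 and −0.98 in pairs 1 to 4 (adjusted p = 0.147), and how far the 2 probe sets share signal was not tested.

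The lectin gene Itln1, whose product binds microbial sugars, had values of 11.77, 11.75, 12.40 and 11.76 in knockouts and 12.92, 12.92, 12.36 and 12.79 in wild types. The 3 knockouts of pairs 1, 2 and 4 lay within 0.02 of each other, and the mean difference of −0.83 ± 0.582 missed the threshold (limma adjusted p = 0.0651). The mucosal pentraxin gene Mptx2 differed by −1.20, −1.43, 0.13 and −0.76 in pairs 1 to 4 (adjusted p = 0.0927). Its relative Mptx1 differed by −0.49, −0.86, 0.18 and −0.54 (adjusted p = 0.151). For both pentraxins pair 3 was the pair without a lower knockout.

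Pla2g2a, a secreted phospholipase gene that RefSeq lists as a transcribed pseudogene in the C57BL/6J assembly, had the largest SD of within-pair differences of the members (1.19, against 1.15 for Ang4). Its values were 8.43, 8.26, 9.49 and 8.36 in knockouts and 9.73, 9.91, 8.48 and 9.30 in wild types. Pair 3 showed a knockout higher by 1.01, while pairs 1, 2 and 4 differed by −1.30, −1.65 and −0.94. The mean of −0.72 ± 1.19 had an interval from −1.69 to 0.25 (limma adjusted p = 0.30). The angiogenin-family gene Ang5 averaged 5.39 in knockouts and 6.04 in wild types, near 5.65, a background level taken from olfactory receptor genes (95% of their probe sets lie under it). Its mean difference of −0.65 ± 0.569 (limma adjusted p = 0.104) did not pass, although the groups did not overlap.

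Habp2 and Nupr1 are not granule peptides. Habp2, a gene for a hyaluronan-binding serine protease, had values of 7.11, 7.05, 7.74 and 7.27 in knockouts and 8.68, 8.74, 8.11 and 8.34 in wild types. The groups did not overlap, and the gap was narrowest in pair 3 (−0.37, against −1.57, −1.69 and −1.07). The mean of −1.18 ± 0.600 is 2.26-fold (limma adjusted p = 0.0333). The stress-response regulator gene Nupr1 had values of 9.09, 8.94, 9.30 and 8.90 in knockouts and 9.91, 10.04, 9.68 and 9.99 in wild types. Its differences were −0.82, −1.10, −0.38 and −1.09 in pairs 1 to 4, with a mean of −0.85 ± 0.338 and the smallest adjusted p of the members (0.0234). Both calls were lost without pair 1, 2 or 4 (adjusted p from 0.0758 to 0.107). Habp2 also lost its call with sex (0.0603) or RNA integrity (0.0739) as a covariate, and with these Nupr1 remained called.

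Mmp7, the gene of the protease that activates the defensin precursors, was the single member with a mean difference above 0. Its values were 9.74, 9.63, 9.94 and 9.67 in knockouts and 9.59, 9.72, 9.25 and 9.35 in wild types. The knockout was higher in pairs 1, 3 and 4 and lower by 0.09 in pair 2, and the largest gap, 0.69, was in pair 3. The mean of 0.27 ± 0.328 did not pass the test (95% interval −0.04 to 0.58, limma adjusted p = 0.234).

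**Figure D2:**
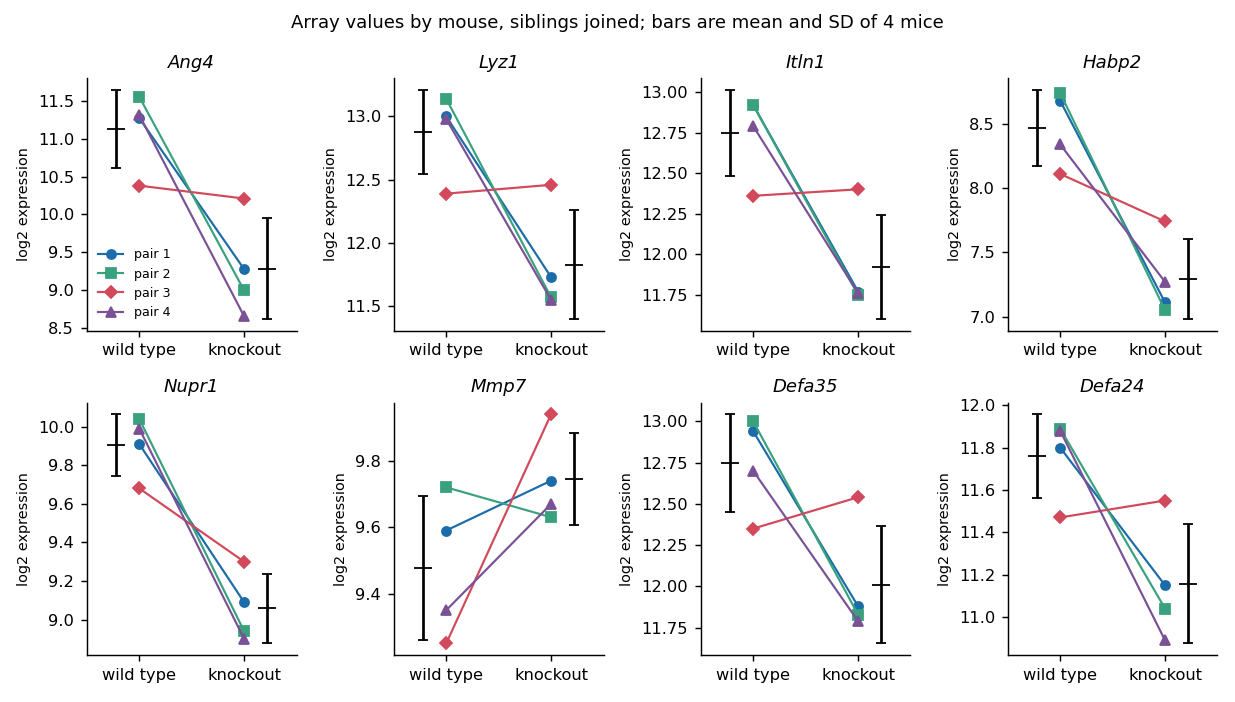
Log2 array values (y axis, a scale for each panel) of 6 other members and 2 defensins in the 8 mice, with siblings joined by a line; bars are the mean and SD of the 4 mice of a genotype. The line of pair 3 is nearly flat for Lyz1 and Itln1, where the lines of the other 3 pairs go down, and it goes up most for Mmp7 (0.69).

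The 22 defensin probe sets behaved alike in direction and less so in size. Their mean differences ran from −0.74 for Defa35 to −0.22 for Defa28, and every defensin was lower in the knockouts of pairs 1, 2 and 4. Not all probe sets are separate measurements: Defa3 and Defa17, Defa2 and Defa33, and Defa20 and Defa32 had identical values on all 8 arrays, which leaves 19 distinct defensin profiles. Defensin genes are alike in sequence, so how far a probe set measures its own gene alone is uncertain.

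Defa35 had values of 11.88, 11.83, 12.54 and 11.79 in knockouts and 12.94, 13.00, 12.35 and 12.70 in wild types. Only in pair 3 was the knockout the higher sibling (by 0.19), and the mean of −0.74 ± 0.627 missed the threshold (limma adjusted p = 0.0952). Defa37, whose promoter is 98% identical to that of Defa35, differed by −1.17, −1.30, 0.51 and −0.94 in pairs 1 to 4 (mean −0.73 ± 0.837, adjusted p = 0.167). These are the members whose promoters are printed above with 2 cores and with 1.

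Defa24, a cryptdin gene at the far end of the stretch, had values of 11.15, 11.04, 11.55 and 10.89 in knockouts and 11.80, 11.89, 11.47 and 11.88 in wild types (mean difference −0.60 ± 0.476, limma adjusted p = 0.0875). Defa30 differed by −0.57, −0.91, 0.11 and −1.12 in pairs 1 to 4 (adjusted p = 0.102). Defa2 and Defa33, which share their values, differed by −0.73, −1.02, 0.21 and −1.18 (adjusted p = 0.111). In these profiles pair 4 had the lowest knockout relative to its sibling and pair 3 the highest.

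Defa22 and Defa27 were the 2 defensins that were lower in every pair, with groups that did not overlap. Defa22 had values of 8.34, 8.36, 8.75 and 8.24 in knockouts and 9.11, 9.13, 8.82 and 9.06 in wild types. Its mean of −0.61 ± 0.359 had the lowest adjusted p of the defensins (0.0542). Defa27 differed by −0.60, −0.54, −0.03 and −0.55 (adjusted p = 0.0708). Over all members 6 of 32 were lower in all 4 pairs, where 17.9% of all probe sets were. The same 6 (Defa22, Defa27, Ang4, Ang5, Habp2 and Nupr1) had every knockout below every wild type, where 17.2% of all probe sets did. Both shares of members are near the background. Since pair means are nearly equal for a typical probe set, the second condition nearly follows from the first and adds little to it.

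The paralogs Defa31 and Defa39 belong to the cryptdin-related CRS sequences, going by their RefSeq synonyms. Defa31 differed by −0.61, −0.66, 0.00 and −0.94 in pairs 1 to 4 (limma adjusted p = 0.0766). Defa39 differed by −0.21, −0.37, 0.12 and −0.94 (adjusted p = 0.22). Defa34, between Defa17 and Defa39 on the chromosome, had an unlike profile of −0.72, −1.15, 0.72 and −0.37 (adjusted p = 0.415). Among these 3 genes the lowest difference was in pair 4 for Defa31 and Defa39 and in pair 2 for Defa34. Defa28, at 5.83 in knockouts and 6.06 in wild types, lay near the background level. The other defensins (Defa3 with Defa17, Defa25, Defa26, Defa40, Defa41 and Defa20 with Defa32) had mean differences from −0.52 to −0.32, and none of them passed.

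Genes with the same promoter window did not have the same pair differences. Defa21 and Defa22 have the same 250 bases before the start site, and their pair differences were −0.35, −0.71, 0.02 and −1.0 for Defa21 and −0.77, −0.77, −0.07 and −0.82 for Defa22. Defa43, without the core, differed by −0.29, −0.56, 0.15 and −0.88. No test was made of a link between motif and difference.

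**Figure D3:**
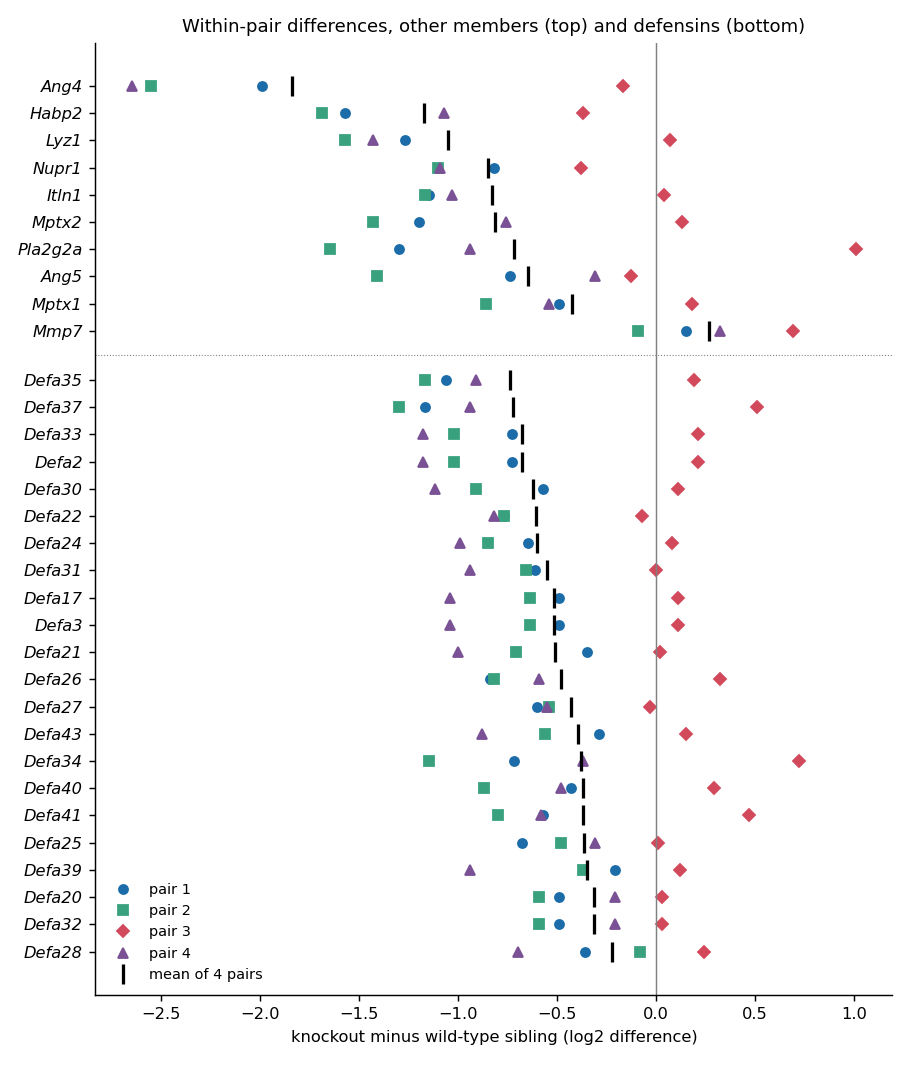
Knockout minus wild-type sibling (x axis, log2 difference) for each of the 32 member probe sets (y axis, other members above the dotted line and defensins below), with a symbol for each sibling pair and a black bar for the mean of 4 pairs. The red diamond of pair 3 is the rightmost symbol in all 32 lines, and the defensins are on the lower side of 0 in pairs 1, 2 and 4.

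Pair 3 stood apart for the whole group. The knockout-to-sibling difference was higher in pair 3 than in each of the other 3 pairs for 32 of 32 members, against 24.2% of all probe sets. In pair 3 the knockout was higher for 25 members, lower for 6 and equal for 1 (Defa31), with a median difference of 0.11. Of all 22206 probe sets 10639 were higher in that pair and 11226 lower. In pairs 1, 2 and 4 the knockout was lower for 31, 32 and 31 of the 32 members (51.1%, 51.6% and 50.4% of all probe sets). In all 3 of these pairs it was lower for 31, where 23.7% of all probe sets were. A profile of lower knockouts in pairs 1, 2 and 4 but not in pair 3 was found for 25 of 32 members and for 5.81% of all probe sets. The members share cells, sequence and arrays, so these counts describe the group and are not independent observations. They were also chosen with earlier results of these data known. Pair 3 against the others has a single pair on one side and allows no test.

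The size of differences in general was similar in the 4 pairs. The median absolute difference over all probe sets was 0.19, 0.19, 0.17 and 0.17 in pairs 1 to 4. The RNA integrity number of the knockout minus that of its sibling was 0.9, −0.4, 0.9 and −0.7. Its part in the profile of pair 3 was not tested. With RNA integrity as a covariate beside the pair, 1 member was called lower (Nupr1), among 152 lower and 212 higher probe sets of 22206. Pair 3 was the only pair with a knockout male and a wild-type female, and the part of sex in its profile cannot be told apart from other traits of the pair. With sex as a covariate beside the pair, 5 members were called lower (Ang4, Nupr1, Defa31, and Defa3 and Defa17, which share their values) and 0 higher, where 1.05% of all probe sets were lower and 1.04% higher, and Habp2 lost its call. The fall of Nfkbia was smallest in pair 3 as well, and its part in the result was not tested.

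Each pair was left out in turn. Ang4, Habp2 and Nupr1 kept their calls without pair 3 and lost them without pair 1, 2 or 4. Without pair 3, 18 members were called lower (11 defensins and 7 others) and 0 higher, where 1.08% of all probe sets were called lower and 0.986% higher, and the median difference of the members was −0.75. Lyz1 then had a mean difference of −1.42 (limma adjusted p = 0.00644), Itln1 of −1.12 (0.00832), Pla2g2a of −1.30 (0.0201) and Defa35 of −1.05 (0.0126). With pair 1, 2 or 4 left out instead, 0 members were called by limma. In these fits 11, 12 and 15 members had an unadjusted p below 0.05, a level for which shares over all probe sets are not given. Calls were fewer over all probe sets too, with 0.306%, 0.252% and 0.432% lower and 0.612%, 0.401% and 0.644% higher in these 3 fits. Pair 3 was left out after its values were known, so the fit without it is a description of the other 3 pairs and does not support the direction.

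**Figure D4:**
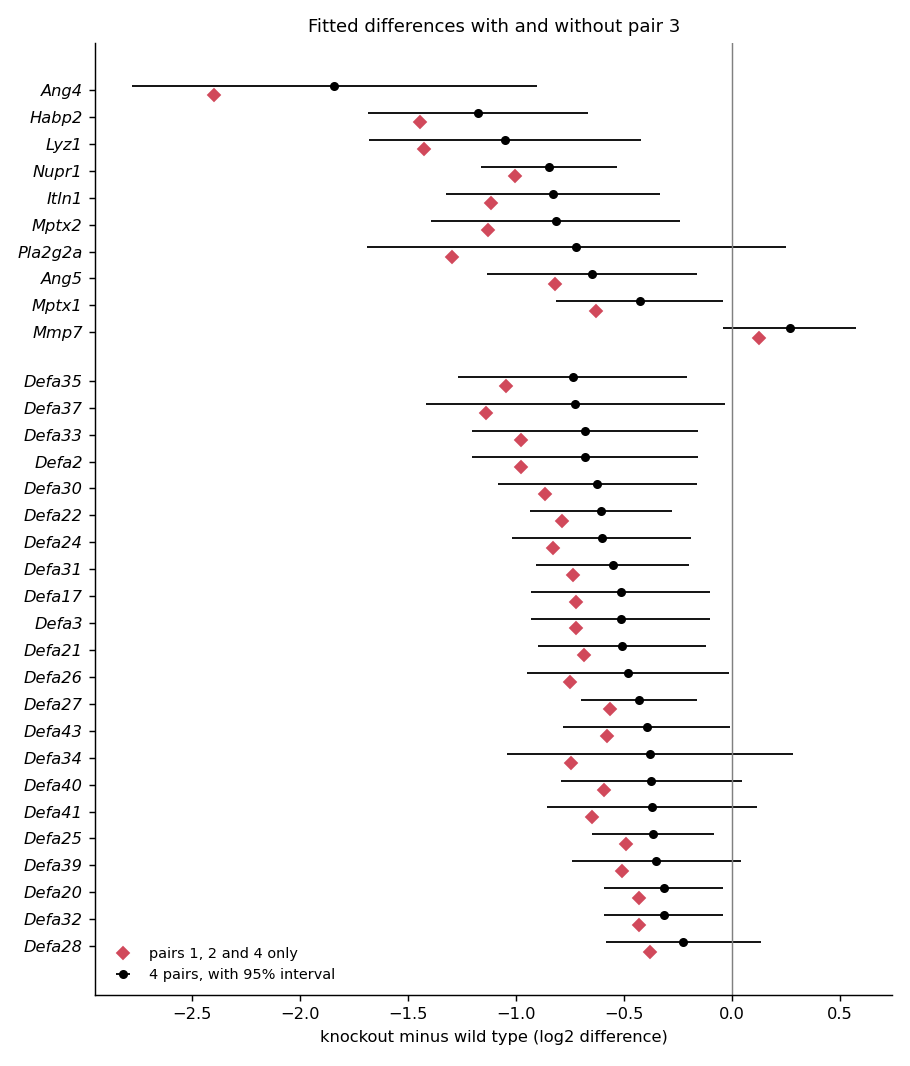
Fitted knockout minus wild-type difference (x axis, log2) of each member over 4 pairs, with its 95% interval (black), and over pairs 1, 2 and 4 only (red diamonds). Every diamond lies to the left of its black point, and Ang4 moves from −1.84 to −2.40.

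Defensins and other members differed by different amounts. The median difference of the defensins was −0.585, −0.74, 0.115 and −0.895 in pairs 1 to 4, and that of the other 10 was −1.175, −1.42, 0.055 and −0.985. The other members were thus lower than the defensins by 0.59 and 0.68 in pairs 1 and 2 but only by 0.06 and 0.09 in pairs 3 and 4. Among defensins 12 of 22 had their lowest difference in pair 4, 7 in pair 2 and 3 in pair 1. Among the other members 9 of 10 had it in pair 2 and 1 in pair 4. This contrast was not tested, since members are not replicates.

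The number of members called depended on the fit. With no replicate block 22 members were lower and 0 higher, where 18.1% of all probe sets were lower and 16.3% higher. With each array centred on housekeeping genes 25 were lower, where 23.3% of all probe sets were lower and 2.24% higher. With centring on epithelial genes 13 were lower, where 8.87% of all probe sets were lower and 2.45% higher. These centrings shifted the median of all probe sets to −0.18 and −0.11, and the members' median to −0.70 and −0.63. Higher probe sets were 54% of all calls in the reported fit, 8.78% after housekeeping centring and 21.7% after epithelial centring.

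Genes that direct Paneth cell formation and secretion were set beside the members. Of 21 measured regulators 1 fell and 0 rose, with a median of 0.05. The gene that fell was Gfi1, a transcription factor of the secretory lineage. It had values of 6.84, 6.76, 6.92 and 6.91 in knockouts and 7.28, 7.38, 7.25 and 7.24 in wild types, without overlap, and its mean of −0.43 ± 0.137 passed the test (limma adjusted p = 0.0355). Its difference was −0.33 in pair 3, as in pair 4. Its call was lost on leaving out any 1 pair (adjusted p from 0.0758 to 0.125) and with sex or RNA integrity as a covariate. Atoh1, which commits cells to the secretory lineage, differed by 0.065 ± 0.157, a sign that turned under either centring, and Sox9, which Paneth cells require, by 0.32 ± 0.175 (adjusted p = 0.0812). The surface marker gene Cd24a, used to sort Paneth cells, differed by −0.36, −0.47, 0.05 and −0.56 in pairs 1 to 4 (adjusted p = 0.12). The Wnt effector Tcf7l2 differed by 0.02, 0.10, 1.15 and 1.25, with pairs 3 and 4 alike (adjusted p = 0.144).

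Of 18 other antimicrobial genes measured, 5 rose and 1 fell, with a median of 0.09. Lcn2, which encodes an iron-siderophore binder, rose by 3.16 ± 0.305 (limma adjusted p = 4.00e-04), and its differences of 2.94, 3.49, 2.86 and 3.34 included pair 3. The peptidoglycan-binding gene Pglyrp1 rose by 1.65 ± 0.315 (adjusted p = 0.00355), and the resistin-like gene Retnlb by 0.87 ± 0.453 (0.0368) at levels under the background. The calls of Lcn2 and Pglyrp1 held without any 1 pair, while that of Retnlb was lost without pair 1, 2 or 3 (up to 0.122). The lectin gene Reg4 fell (−1.55 ± 0.556, adjusted p = 0.0156, lost without pair 2), with −1.24 in pair 3. Reg3g, a lectin gene of enterocytes and Paneth cells, was at 0.28 ± 0.0695 and did not pass (adjusted p = 0.0684). Of the 18 genes 2, Lyz2 and Ang2, were lower in the knockouts of pairs 1, 2 and 4 but not in pair 3, where 5.81% of all probe sets were. Ang2 differed by −0.75, −1.63, 0.53 and −0.52 in pairs 1 to 4 (limma adjusted p = 0.264), so this profile was not confined to the members.

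Markers of other cells had other medians over the 4 pairs. The 12 goblet cell genes had medians of 0.03, −0.035, 0.065 and −0.035 in pairs 1 to 4 with 0 called in either direction by limma. At unadjusted p under 0.05 was 1 of them, where 6098 of all 22206 probe sets were. The 10 stem cell genes had medians of −0.075, −0.07, 0.18 and 0.07, also with 0 called (3 at unadjusted p under 0.05). The 17 epithelial genes had medians of 0.11, 0.03, 0.14 and 0.04, with mean levels of 11.6 in knockouts and from 11.4 to 11.5 in wild types. Of these, 2 were called higher (Prom1 and Elf3) and 0 lower, and 11 had an unadjusted p under 0.05. Epcam, Cdh1, Vil1 and Krt20 were lower in the knockout of all 4 pairs, without a call (means −0.20, −0.15, −0.34 and −0.27). In each pair 9 of the 17 genes were higher in the knockout, so medians near 0 hold shifts in both directions. The limma call of Prom1 was lost without any 1 pair (adjusted p from 0.0506 to 0.0927) and with sex or RNA integrity as a covariate, and that of Elf3 without pair 1, 2 or 4 (up to 0.0721) and with RNA integrity. Pancreatic acinar genes, 13 in number, had medians of −0.51, 0.06, −4.10 and −3.39, with the large values in pairs 3 and 4. Adipose genes, 9 in number, had medians of 1.66, 1.30, 0.11 and −0.16. Neither list had a called gene (8 and 5 at unadjusted p under 0.05), and mean levels ran from 5.99 to 7.82 in knockouts and 7.58 to 10.2 in wild types for acinar genes, and from 7.20 to 8.66 and 6.43 to 7.69 for adipose genes. The 11 myeloid genes, which include Lyz2, had medians of 0.24, 0.14, −0.10 and −0.44. The part of these cells in the results was not tested.

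Defensin expression differs along the intestine, so markers of position were set beside the members. Of 8 ileal genes 2 rose (Fut2 and Fabp6) and 0 fell. Of 12 duodenal genes 2 rose (Slc40a1 and Slc11a2) and 2 fell (Sct and Gip). Of 5 Brunner gland genes Pgc fell, at levels under the background. Each of these 7 genes had 1 direction in all 4 pairs, pair 3 included. Each lost its limma call (adjusted p up to 0.133) when 1 or another pair was left out. A call over 4 pairs favours genes of 1 direction, so this shared direction does not describe the lists. In pairs 1 to 4 the duodenal genes had medians of −0.065, 1.74, 0.38 and 0.635. The ileal genes had medians of 0.17, 0.045, 0.205 and −0.03, and the Brunner gland genes −0.41, −0.41, −0.74 and −0.81. Among uncalled genes, Cybrd1 (0.05, 3.7, 1.26 and 1.78) and Tff2 (−0.56, −0.48, −4.35 and −4.26) differed widely between pairs, while Slc10a2 did not. The part of position along the intestine in the members' differences was not tested.

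**Figure D5:**
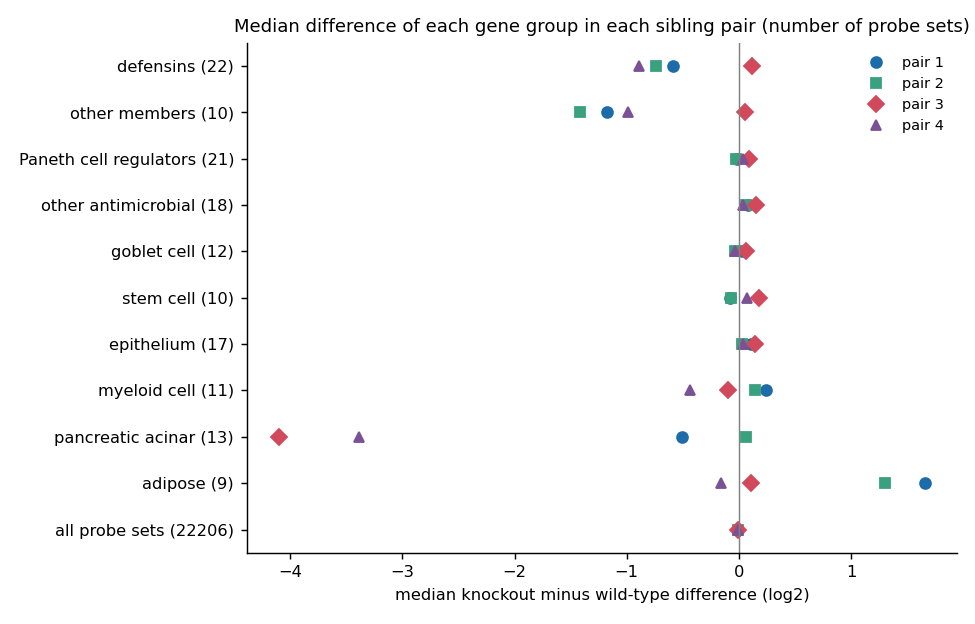
Median knockout minus wild-type difference (x axis, log2) of each gene group (y axis, with its number of probe sets) in each sibling pair. Defensins and other members lie between −1.42 and −0.585 in pairs 1, 2 and 4 and near 0 in pair 3, goblet, stem and epithelial genes lie near 0 in all pairs, and acinar and adipose genes are split between pairs 1 and 2 and pairs 3 and 4.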

How the data were processed

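The authors deposited log2 expression values per probe set for 8 arrays, and the submitters' processing notes list RMA with Transcriptome Analysis Console 4.0. No source used here gives further settings or the step that left the pair means nearly equal for a typical probe set. Array medians lay between 6.77 and 6.81. Members and gene lists were chosen with earlier results of these data known. A single gene symbol was given for 19572 probe sets, several for 0 and no symbol here for 2634. All 32 member gene IDs were found in RefSeq (GRCm38.p6), which also gave the promoters.

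Differences were tested with lmFit and eBayes of limma 3.58.1 (R 4.3.3), taking the sibling pair as a block, since the labels number the pairs and the series design describes littermate controls. The Benjamini-Hochberg threshold was 0.05 over all 22206 probe sets, two-sided. The fit was tested on simulated data with independently drawn pair differences, which does not cover the likeness between pairs given below. As a check of pairing, siblings' deviations from their group means had correlations from −0.913 to −0.87 over probe sets, which follows from the near-equal pair means. The 4 differences were taken as independent; over probe sets those of pairs 1 and 2 (r = 0.682) and of pairs 3 and 4 (r = 0.673) were more alike than the others (0.346 to 0.420). With 3 residual degrees of freedom, 6.63 after moderation, the number of arrays limits the precision. Values after ± are SDs of the 4 within-pair differences. Named genes were all members, Nfkbia, and up to 4 called genes of each list (the 2 largest differences where 0 were called), of which the report gives those beside its results. Atoh1, Sox9, Cd24a, Tcf7l2, Lyz2, Ang2 and Reg3g were named after their values were seen. For list genes with several probe sets the brightest was used. Of the housekeeping list Gusb was called higher (0.37 ± 0.121, limma adjusted p = 0.0449, lost without any 1 pair), and the 11 genes had a median of 0.193. Alternatives were the fit with no replicate block, each pair left out, quantile normalization, a filter on dim probe sets, trend and robust variance, centring of each array on housekeeping or on epithelial genes, and sex or RNA integrity as a covariate.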

Additional observations from a re-analysis of the deposited data

Results flagged for a closer look

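In a group of 4 values, a value was singled out when its gap to the nearest other value was a larger share of the whole range than the 95% critical value of Dixon's test. Chance singles out about 1 in 20 such groups, and members are not independent. Each of the 32 members was examined in knockouts, in wild types and in the within-pair differences. Values singled out were all from pair 3. In knockouts they were those of Defa35 (12.54), Defa27 (9.93), Defa37 (11.52), Defa26 (9.81), Itln1 (12.40) and Pla2g2a (9.49), each above the other 3 knockouts. In wild types it was that of Defa31 (12.21), below the other 3. Among within-pair differences they were those of Defa22 (−0.07), Defa27 (−0.03) and Itln1 (0.04). Since pair means are nearly equal for a typical member in the deposited values, a high knockout and a low sibling of pair 3 carry nearly the same information.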

How the results depend on the processing

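Every member kept the direction of its difference under all alternatives, which were fixed with earlier results known, except for counting identical probe sets once and refitting the list genes, which were added after seeing the data. With identical probe sets counted once 3 members were lower. The counts of calls moved more. With no replicate block, 22 members were lower (14 defensins and 8 others), among 4026 lower and 3622 higher probe sets. Centring on housekeeping genes gave 25 (17 and 8) with 5175 lower probe sets in all and 498 higher, after a shift of the overall median from −0.015 to −0.18. Centring on epithelial genes gave 13 (6 and 7) with 1969 lower and 545 higher. Atoh1, at 0.065 in the reported fit, turned to −0.10 and −0.027 under these centrings. With sex beside the replicate block 5 members were lower (3 defensins and 2 others; 233 lower and 231 higher in all), and with RNA integrity 1 (0 and 1; 152 and 212). Quantile normalization called 1 defensin lower (581 probe sets lower in all), and trend and robust variance 2 (862 lower and 1135 higher in all). The filter on dim probe sets kept 3 members lower. Without 1 pair, members lower numbered from 0 to 18, defensins 0 to 11, others 0 to 7, all probe sets lower 56 to 240 and higher 89 to 219, with the highest member counts without pair 3. The mean over pairs of the median difference went from −0.74 to −0.40 for defensins, −1.19 to −0.70 for other members and −0.45 to −0.25 for their gap. The causes of these shifts were not tested.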
